A study of Mus musculus with 25 samples.

Results

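The constitutive proteasome subunit genes were followed across 5 groups of mouse thymocytes profiled on Illumina bead arrays. Members were the genes whose symbol starts with Psma, Psmb, Psmc or Psmd followed by a digit, without Psmb8, Psmb9 and Psmb10, which build the immunoproteasome. The platform annotation held 37 such genes, and 35 of them, of 15533 genes in all, had a probe with a detection p-value below 0.05 on at least 3 of 25 arrays. Psma1 and Psma3 were detected on 0 arrays and were not analysed further. Psmc3ip fits the naming rule but encodes a meiotic recombination cofactor, so the results below are given for the remaining 34 genes. Of these, 14 encode the core particle (Psma and Psmb) and 20 the regulatory cap (Psmc and Psmd). Among the cap genes, Psmd5, Psmd9 and Psmd10 encode assembly chaperones that leave the finished particle.

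The proteasome is the protease that degrades ubiquitin-tagged proteins in the cytosol and nucleus. Its core is a barrel of alpha rings, which form the gate, and beta rings, whose Psmb5, Psmb6 and Psmb7 subunits carry the proteolytic sites. Its cap holds a ring of ATPases (Psmc) that unfold substrates and a group of non-ATPase subunits (Psmd) that bind and remove ubiquitin. In lymphoid cells the subunits Psmb8, Psmb9 and Psmb10 can take the place of Psmb5, Psmb6 and Psmb7 and change which peptides are made for MHC class I molecules.

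The series asks how early thymocytes differ when they persist in the thymus with or without competing newcomers. All cells were negative for CD4, CD8 and CD3 and were sorted as CD25-positive, where CD25 is a chain of the receptor for interleukin-2. Young cells (n = 6) were the C57BL/6 host's own TN2/3 cells, which carry CD45.2. The first old group, with competition (n = 6), held TN2/3 cells of B6/Ly5.1 donor origin (CD45.1) from wild-type hosts described as competitive. Old cells without competition (n = 9) were of F1(WB x B6/Ly5.1) origin and came from non-competitive hosts that lack Rag2 and the common gamma chain of cytokine receptors and carry KitW/Wv. For replicate 1 of this group the cell type is not labelled. TN2 (n = 2, CD44-positive) and TN3 (n = 2, CD44-negative) controls were wild-type B6/Ly5.1 cells. The labels used here give no ages and do not say whether samples came from separate animals, so the p-values reflect sample-to-sample spread, which may be technical. Chips 2 and 4 held the arrays of young cells and of the old group with competition, while old cells without competition were on chips 1 and 5, so that for them strain, host and chip cannot be told apart. In bulk RNA, fewer cells of a type and less RNA per cell cannot be told apart either.

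Array 6 of the old cells with competition stood apart from the other arrays. On it 1617 genes lay more than 1 log2 unit from the group mean, against 31 to 532 genes on the other 24 arrays. Its mean over the 4 measured of 7 listed markers of double-positive thymocytes was 9.20 on the log2 scale, against 7.84 to 8.19 on the other 5 arrays of its group. Of these markers, Cd4 (8.86 against 4.55 to 5.31) and Rag1 (11.13 against 9.48 to 9.89) were higher than on those arrays, Cd3e (10.25) lay within their range and Cd8b1 (6.54 against 7.57 to 7.97) was lower. Its mean over 9 markers of dividing cells was 6.66, against 7.67 to 7.89. Values without array 6 are therefore given beside the results on old cells with competition that turn on it. The labelled stages were checked on 2 marker lists. The mean of 6 TN2 markers was 6.42 in TN2, 4.64 in TN3, 5.69 in young cells, 4.33 with competition and 4.46 without. The mean of 7 TN3 markers lay between 5.62 and 5.77 in TN2, 7.81 and 7.83 in TN3, 7.00 and 7.61 in young cells, 7.35 and 7.73 with competition and 7.48 and 7.93 without. Il2ra, which encodes CD25, was detected on 0 of 2 TN3 arrays and on 5 of 9 arrays of old cells without competition, so its probe did not check the sort. Markers of other cells also differed between young and old cells. The mean over 12 of 13 myeloid and dendritic markers was 5.37 to 5.78 in young cells, 4.49 to 4.69 with competition and 4.53 to 4.83 without. That over 6 of 7 erythroid markers was 4.90 to 5.50, 4.21 to 4.83 and 4.27 to 5.37 in the same order. That over 7 of 9 markers of natural killer, innate lymphoid and gamma-delta T cells was 5.84 to 6.17, 4.43 to 5.73 and 5.10 to 6.03, and that over 3 of 8 B cell markers 5.41 to 5.99, 4.97 to 5.50 and 4.80 to 5.50. The part of these cells in the results below was not tested.

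The promoters below are printed to show the sequence letters that were searched in the members. RefSeq promoter windows (GRCm38.p6, 250 bases before to 50 bases after the annotated start) were at hand for 29 of 36 subunit genes, Psma1 and Psma3 included. The letters TGACNNNGC, the core of the antioxidant response element through which Nfe2l2 and Nfe2l1 can raise proteasome genes, stood on either strand in 5 of the 29 genes, which are Psmb5, Psmb6, Psmc6, Psmd9 and Psmd12. That is 17.2% of members, against 12.4% of 32851 windows and 14% of 27025 genes. The CCAAT box stood in 12 of the 29 genes (41.4%), against 37.4% of windows and 41.1% of genes. No member held both motifs, and a match describes the letters only. The 150 bases before the start follow in the direction of the gene, with the matches in capitals. Psmb5, Psmb6 and Psmd9 hold the first motif, and Psmb3, chosen after its values were seen, holds 2 CCAAT boxes.
Psmb5, chr14:54617996-54618145, minus strand: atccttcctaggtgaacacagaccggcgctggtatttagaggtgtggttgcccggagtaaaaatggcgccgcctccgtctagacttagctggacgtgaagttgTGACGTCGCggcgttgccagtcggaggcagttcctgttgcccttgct
Psmb6, chr11:70525207-70525356, plus strand: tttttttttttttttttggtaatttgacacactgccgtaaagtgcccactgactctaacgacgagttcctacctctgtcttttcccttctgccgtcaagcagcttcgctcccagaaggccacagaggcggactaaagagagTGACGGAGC
Psmd9, chr5:123228040-123228189, plus strand: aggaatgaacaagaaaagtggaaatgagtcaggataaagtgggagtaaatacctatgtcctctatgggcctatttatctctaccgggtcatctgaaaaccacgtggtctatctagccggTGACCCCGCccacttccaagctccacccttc
Psmb3, chr11:97703284-97703433, plus strand: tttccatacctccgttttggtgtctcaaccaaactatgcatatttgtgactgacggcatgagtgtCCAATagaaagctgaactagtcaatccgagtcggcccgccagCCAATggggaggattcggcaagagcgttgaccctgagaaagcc

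Most constitutive subunits lay within 1.5-fold of their level in young cells, as did most genes. In old cells with competition all 34 did, against 94.2% of all genes, and without array 6 the number was 32, against 93.7%. Without competition, 33 of 34 did, against 91.1% of all genes, and the exception was Psmd8. The median standard error of a subunit's log2 change was 0.15 and 0.14 in these comparisons. By limma's moderated F test across the 5 groups, 5 of 34 subunits (14.7%) differed, against 12.3% of all genes. These were Psma6 of the alpha ring (adjusted p = 0.0111), Psmb3 of the beta ring (0.0196) and Psmd8, Psmd11 and Psmd14 of the cap (3.27e-07, 0.0192 and 0.0321). Without array 6 the same test called 16 of 34 subunits (47.1%), 5 of the core and 11 of the cap, against 18.6% of all genes.

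The mean signal over the core genes gave a first view by array. It was 7.84 and 7.96 on the TN2 arrays and 7.99 and 7.96 on the TN3 arrays, and its lowest, median and highest values were 7.94, 7.98 and 8.14 in young cells. With competition they were 7.48, 8.16 and 8.21, and without competition 7.98, 8.14 and 8.29. The lowest value of old cells with competition was array 6, and the other 5 arrays lay between 8.12 and 8.21. Young cells overlapped with both old groups, and their highest array, at 8.14, lay above the next young array at 8.01.

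The mean over the cap genes was 7.63 and 7.78 in TN2, 7.64 and 7.71 in TN3, and 7.89, 7.96 and 8.00 in young cells as lowest, median and highest. In old cells with competition these were 7.50, 8.14 and 8.24, and without array 6 the lowest was 8.07. In old cells without competition they were 7.80, 7.96 and 8.17. All 4 control arrays lay below all 21 arrays of the young and old groups except array 6. Array 6 was the lowest array of its group for 28 of 34 subunits, 12 of the core and 16 of the cap. The share of all genes for which it was lowest is not given. Its median over all genes was also the lowest of its group (4.89 against 4.95 to 4.98).

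**Figure D1:**
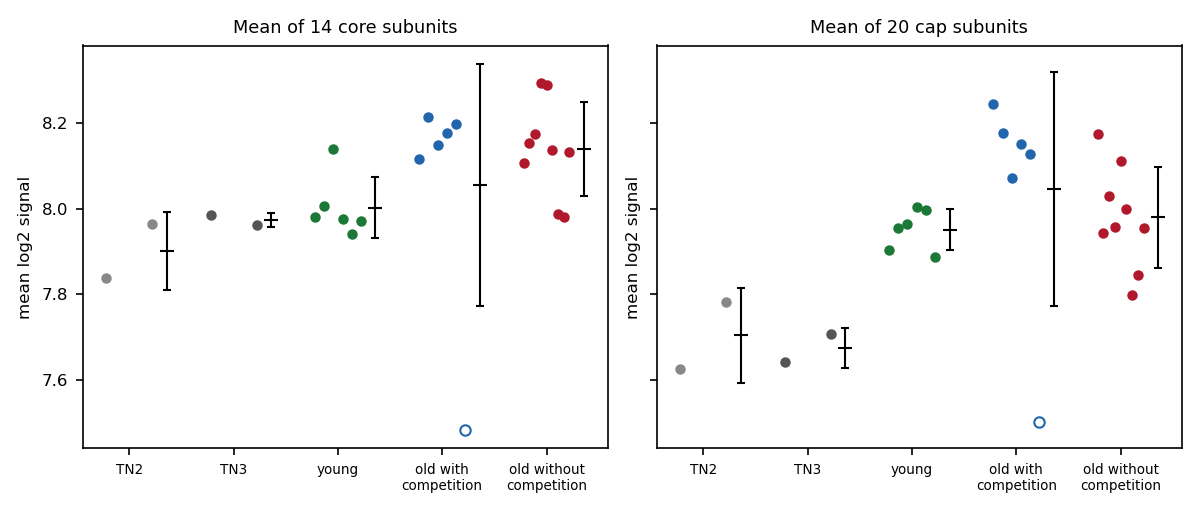
Mean log2 signal of the 14 core (left) and 20 cap (right) genes on each array, by group; the open circle is array 6 of old cells with competition, and the bars are the group mean ± SD. Array 6 sits at 7.48 and 7.50, and the 4 TN2 and TN3 arrays are below every young array in the right panel.

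Against young cells, no constitutive subunit passed the test in the old group with competition when all arrays were used. Of 34 subunits, 0 were called by limma at an adjusted p below 0.05, where 2.92% of all genes were called in either direction. Limma's unadjusted p was below 0.05 for 2 of 34 subunits, against 11.6% of all genes. Changes of the core genes ran from -0.16 to 0.39 on the log2 scale with a median of 0.07, and those of the cap from -0.19 to 0.44 with a median of 0.08. The median over all genes was 0.00. The number of subunits with a positive change was 23 of 34, against 51.2% of all genes.

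Without array 6, 28 of 34 subunits had a positive change, against 51.1% of all genes. The medians were 0.15 for the core and 0.25 for the cap, and 2 subunits were called higher, where 1.46% of all genes were. The first was Psmb5, the subunit with the chymotrypsin-like site. Its log2 signal was 5.28, 5.62 and 5.85 in young cells (lowest, median and highest) and 5.96 to 6.44 on the 5 remaining arrays of the old group. The groups did not overlap, and the change was 0.61 ± 0.17 (SE, n = 5 against 6, limma adjusted p = 0.0428). The other was Psmd11, a lid subunit that contacts both the core and the ATPases. Its change was 0.63 ± 0.18 (limma adjusted p = 0.0477), and its ranges of 5.98 to 6.80 and 5.44 to 6.15 overlapped. With array 6, at 4.83 for Psmb5 and 5.19 for Psmd11, the changes were 0.39 ± 0.22 and 0.44 ± 0.21 (limma adjusted p = 0.564 and 0.422).

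The median changes were positive on both chips that held these groups, and 25 of 34 subunits had the same sign on both. The other 9 had opposite signs, among them the lid subunit Psmd7 (-0.44 on chip 2 and 0.29 on chip 4). On chip 2, which holds array 6, the median change was 0.04 for the core and 0.02 for the cap, and on chip 4 it was 0.07 and 0.18. The change of Psmb5 was 0.23 on chip 2 and 0.54 on chip 4, and that of Psmd11 was 0.09 and 0.78.

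Limma called 2 constitutive subunits, Psmb3 and Psmd8, between old cells without competition and young cells, and the probes of Psmd8 had opposite signs. Of 34, 1 was called higher and 1 lower, against 3.17% of all genes called higher and 5.76% called lower. The core genes changed by -0.21 to 0.53 on the log2 scale, with 13 of 14 positive, against 54.8% of all genes, and a median of 0.09. The cap genes changed by -0.98 to 0.48, with 11 of 20 positive and a median of 0.02, which is the median of all genes. These medians depended on the scaling between arrays. When arrays were scaled to a common median instead of quantile normalized, the median over all genes moved to -0.17, that of the core to -0.37 and that of the cap to -0.43.

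Psmb3, a beta subunit without a proteolytic site, was the member called higher. Its log2 signal was 7.60, 7.80 and 7.86 as lowest, median and highest in young cells, 7.32, 8.11 and 8.26 with competition, and 7.99, 8.29 and 8.60 without. On the controls it was 7.09 and 7.93 (TN2) and 7.95 and 7.99 (TN3). All 9 arrays of old cells without competition lay above all 6 young arrays. Its change was 0.53 ± 0.13 (SE, 1.44-fold, limma adjusted p = 0.0141), and this call held when any 1 array was left out (highest adjusted p = 0.0381). It was -0.03 when arrays were scaled to a common median, against -0.17 for all genes. A second Psmb3 probe, detected on 6 arrays, changed by 0.06. Old cells without competition did not pass the test for Psmb3 against old cells with competition (0.33 ± 0.13, limma adjusted p = 0.278).

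Psmd8, a lid subunit needed for the assembly of the cap, was the member called lower, but its 2 probes disagreed. On the brighter probe, ILMN_2678019, the log2 signal was 8.24, 8.35 and 8.73 in young cells (lowest, median and highest) and 8.42, 8.74 and 8.78 with competition. In old cells without competition it was 7.12, 7.45 and 7.82, below every other array of the series, the lowest of which was a TN3 array at 7.98. The change from young cells was -0.98 ± 0.11 (SE, n = 9 against 6, limma adjusted p = 2.03e-06). The change from old cells with competition was -1.20 ± 0.11 (limma adjusted p = 2.45e-07), the 1 subunit called lower in that comparison, where 0.83% of all genes were.

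On the dimmer probe, ILMN_2546047, old cells without competition were not lower. Its log2 signal was 6.22, 7.39 and 7.54 as lowest, median and highest in young cells, 7.17, 7.59 and 7.81 with competition and 7.24, 7.70 and 7.99 without. The ranges overlapped, and the change from young cells was 0.49 ± 0.18 (limma over single probes, adjusted p = 0.116). The mean of both probes changed by -0.25 (limma adjusted p = 0.101). Both probes are annotated to Psmd8, and their sequences are not used here, so which probe follows the transcript was not tested.

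**Figure D2:**
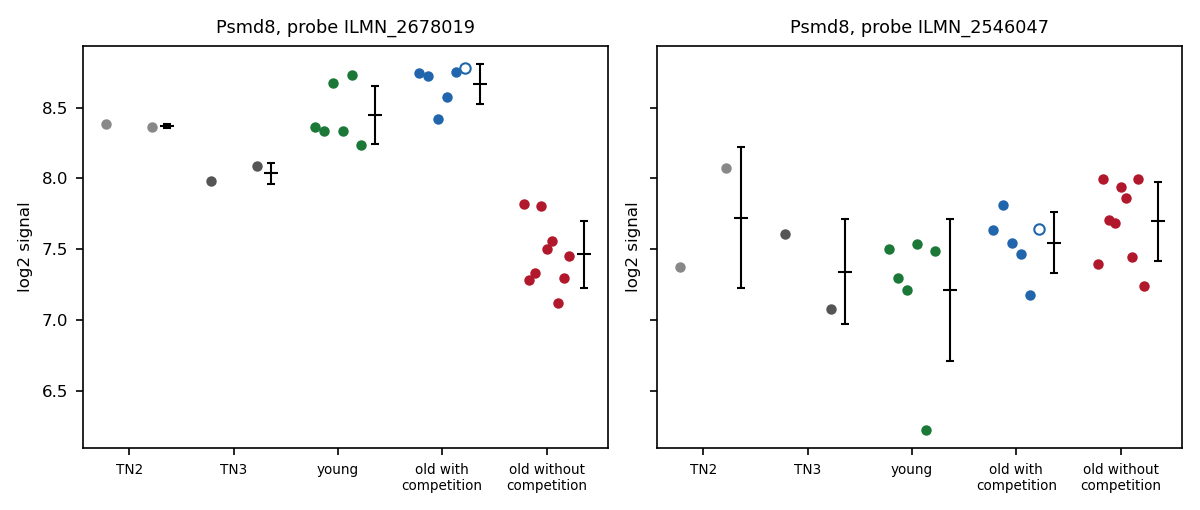
Log2 signal of the 2 Psmd8 probes on each array, by group, with the group mean ± SD; the open circle is array 6 of old cells with competition. The 9 arrays of old cells without competition lie at 7.12 to 7.82 on the left probe, below all others, and at 7.24 to 7.99 on the right probe, where they overlap every group.

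Probes of the same subunit often disagreed in sign. Of 34 subunits, 20 had several kept probes, and in 11 of these the signs differed between old cells without competition and young cells. When each of the kept probes was tested by itself, 6 of 61 subunit probes were called in that comparison, 4 higher and 2 lower. Besides Psmb3 and Psmd8 these were a dimmer probe each of Psma7 (0.46 ± 0.11), Psmb7 (0.69 ± 0.17), Psmd1 (0.62 ± 0.17) and Psmb2 (-0.78 ± 0.23), with limma adjusted p-values of 0.0104, 0.0146, 0.0235 and 0.0401. The brightest probes of these 4 subunits changed by 0.08, 0.10, 0.12 and 0.03. A count of called subunits thus rests on which probe stands for the gene. The share of called probes over all 30174 probes tested is not given, so the 6 called probes are not read as a result about the subunits. By gene, 3.17% were called higher and 5.76% lower in this comparison.

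**Figure D3:**
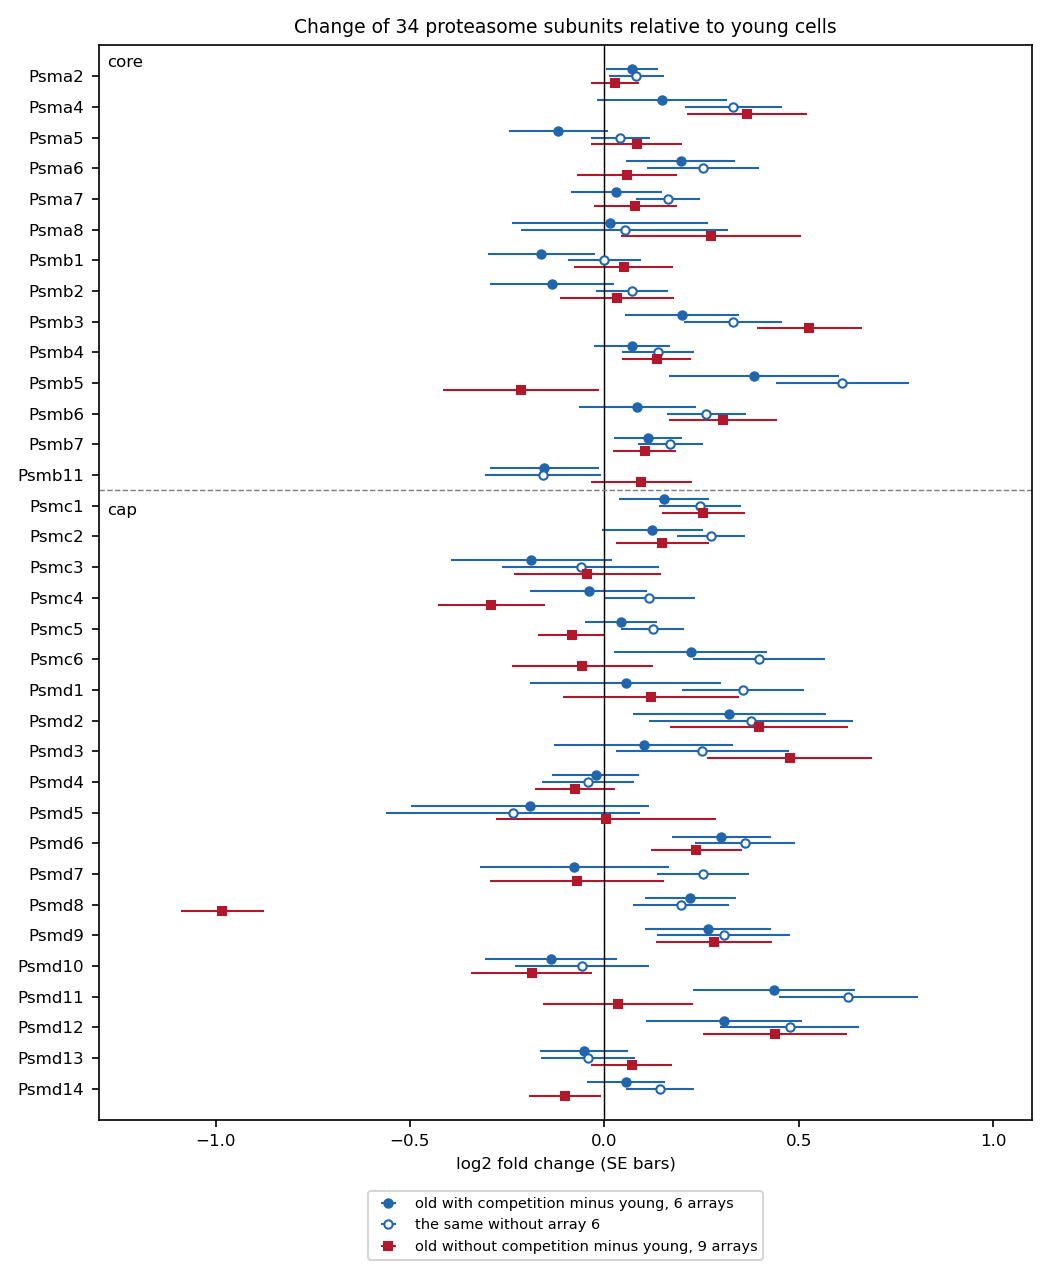
Log2 fold change from young cells of each of the 34 subunits, core above the dashed line and cap below, with SE bars; filled circles are old cells with competition (n = 6), open circles the same without array 6 (n = 5) and squares old cells without competition (n = 9). Most lie within 0.5 of 0, Psmd8 stands at -0.98 in old cells without competition, and the open circles lie to the right of the filled ones for most subunits.

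Old cells without competition were also set against old cells with competition. The median change was 0.18 for the core and 0.01 for the cap, and without array 6 these were 0.02 and -0.13. Scaled to a common median they were -0.34 and -0.52, against -0.20 for all genes. Without array 6, Psmb5 (-0.83 ± 0.16, limma adjusted p = 0.00564) and the ATPase subunit Psmc4 (-0.41 ± 0.11, limma adjusted p = 0.0478) were called lower besides Psmd8, where 1.49% of all genes were. Psmb5 was 4.91, 5.26 and 5.95 as lowest, median and highest in old cells without competition, below all 5 remaining arrays of old cells with competition. With array 6 its change was -0.60 ± 0.20 (limma adjusted p = 0.160).

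The 3 proteolytic subunits were compared with the immunoproteasome subunits that can replace them. Psmb6, which carries the caspase-like site, had a log2 signal of 7.27, 7.55 and 7.82 as lowest, median and highest in young cells, 6.77, 7.78 and 8.10 with competition and 7.65, 7.88 and 8.09 without. It did not pass the test in either comparison with young cells (0.08 ± 0.15 and 0.30 ± 0.14, limma adjusted p = 0.940 and 0.199), and without array 6 the first was 0.26 ± 0.10 (limma adjusted p = 0.180). Its counterpart Psmb9 had values of 9.76, 9.98 and 10.18 in young cells, 9.34, 9.54 and 9.69 with competition and 8.83, 9.16 and 9.24 without competition. On the controls it was 9.86 and 9.95 (TN2) and 9.735 and 9.659 (TN3). The lower TN3 array lay within the range of old cells with competition. Against TN3, in the fit without array 6, Psmb9 changed by -0.14 with competition and -0.57 without (limma adjusted p = 0.613 and 0.006). The 3 groups of young and old cells did not overlap, and the changes from young cells were as follows. Psmb9 fell by 0.45 ± 0.09 in old cells with competition (limma adjusted p = 0.00378; -0.56 on chip 2 and -0.33 on chip 4, and -0.41 ± 0.09 without array 6) and by 0.85 ± 0.08 without competition (limma adjusted p = 3.9e-07).

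Psmb7, with the trypsin-like site, ranged over 9.40, 9.45 and 9.62 in young cells (lowest, median, highest), 9.32, 9.65 and 9.71 with competition and 9.37, 9.60 and 9.79 without. The groups overlapped and its changes were 0.11 ± 0.09 and 0.10 ± 0.08. Its counterpart Psmb10 ranged over 9.77, 10.08 and 10.26, 9.70, 9.82 and 10.04, and 9.59, 9.70 and 10.01 in the same order. It fell by 0.29 ± 0.09 in old cells without competition (limma adjusted p = 0.0465), a call that ended when any of 11 single arrays was left out, and changed by -0.17 ± 0.10 in old cells with competition (limma adjusted p = 0.552).

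Psmb8, the counterpart of Psmb5, ranged over 8.04, 8.53 and 8.73 in young cells, 8.30, 8.40 and 8.72 with competition and 7.99, 8.38 and 8.43 without. It did not pass the test in either comparison with young cells (-0.06 ± 0.11 and -0.18 ± 0.10). The change of each immunoproteasome subunit relative to its counterpart was tested over arrays, with an exact two-sided permutation test adjusted over 9 tests. Since the 2 genes have different probes, only the change of their difference between groups is read. From young cells to old cells without competition, Psmb9 minus Psmb6 moved by -1.15 (2.39 ± 0.36 to 1.24 ± 0.23, SD, exact adjusted p = 0.0018, raw p = 0.0002, the smallest the design allows). Psmb10 minus Psmb7 moved by -0.39 (exact adjusted p = 0.0252), which was lost without young replicate 1, 4 or 5 (highest exact adjusted p = 0.0633), and Psmb8 minus Psmb5 by 0.03 (exact adjusted p = 0.865). Between the old groups, Psmb9 minus Psmb6 was lower without competition (change of -0.62, exact adjusted p = 0.0018). In old cells with competition the 3 differences moved by -0.53, -0.29 and -0.45 relative to young cells, and none passed with all arrays (exact adjusted p = 0.0682, 0.0877 and 0.131). Without array 6 they moved by -0.67, -0.33 and -0.65, and the first and the last passed (exact adjusted p = 0.0117, 0.0529 and 0.0065). The 5 remaining arrays then lay below all young arrays in Psmb9 minus Psmb6 (highest 1.85, lowest young 1.94) and in Psmb8 minus Psmb5 (2.52 and 2.73). Between the old groups without array 6, Psmb9 minus Psmb6 moved by -0.48 and Psmb8 minus Psmb5 by 0.68 (exact adjusted p = 0.0065 and 0.00899).

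**Figure D4:**
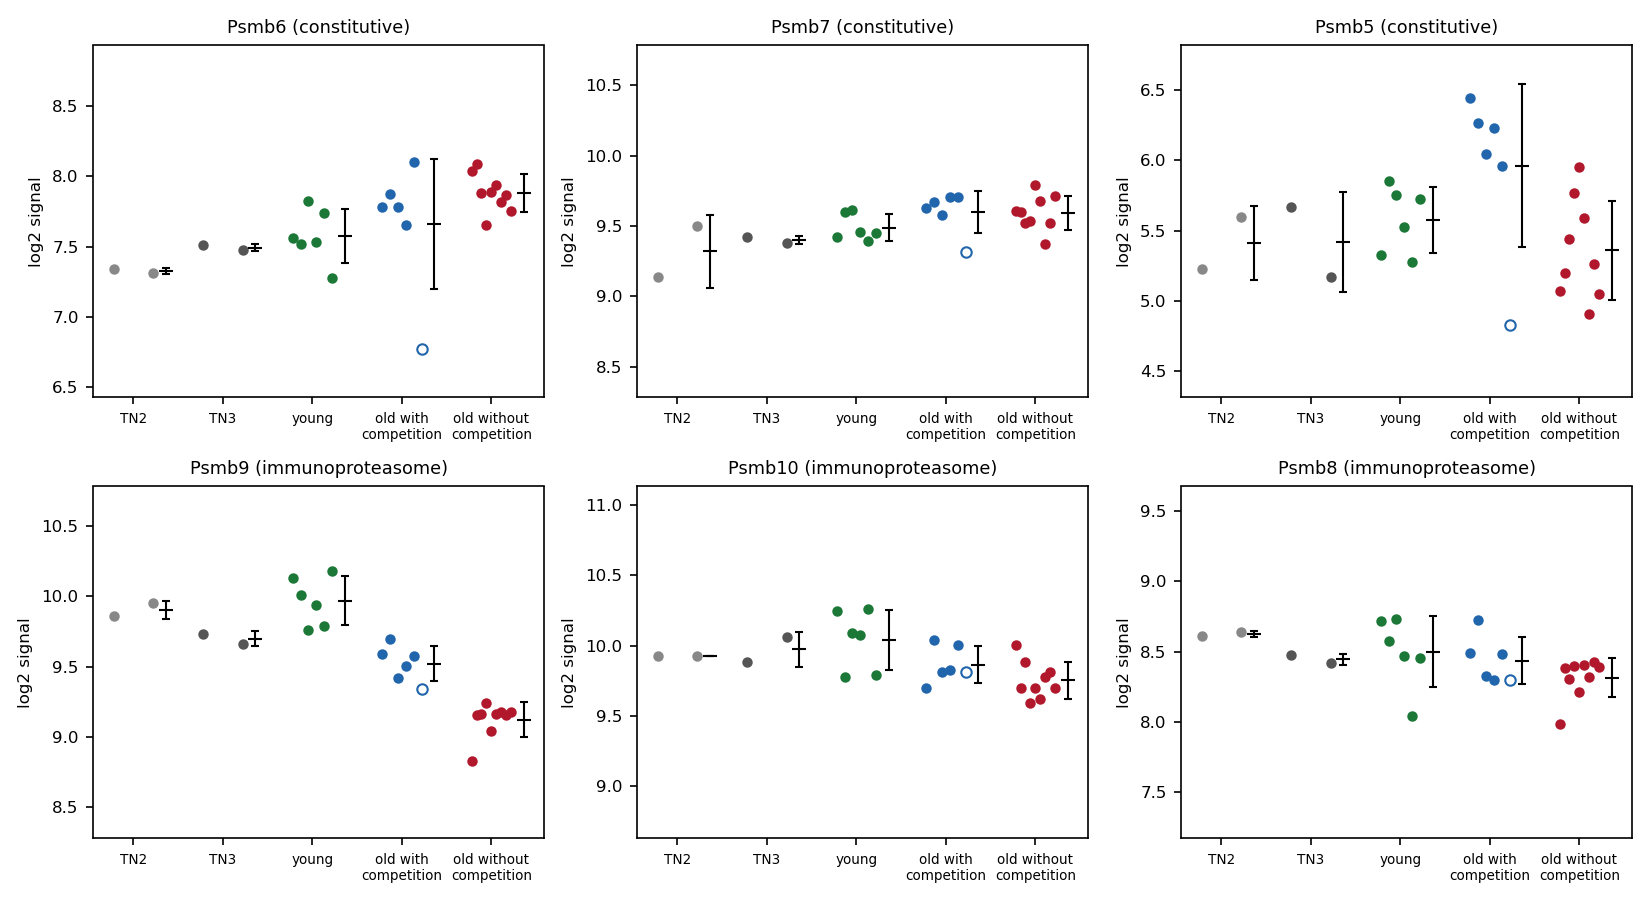
Log2 signal on each array, by group, of the constitutive proteolytic subunits (top) and of the immunoproteasome subunit that can replace each (bottom), all panels spanning the same height on the log2 scale; bars are the mean ± SD and the open circle is array 6. Psmb9 separates the young group from the old groups with and without competition (9.97, 9.52 and 9.12 on average), while Psmb6 and Psmb7 overlap between the groups.

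The subunits with restricted tissue expression were near the detection limit. Psmb11, which thymic cortical epithelium uses in place of Psmb5, was detected on 19 arrays and had log2 signals between 4.16 and 4.99 on all arrays. Its medians were 4.49 in young cells, 4.37 with competition and 4.63 without, and its ranges overlapped. The mean over 6 markers of thymic epithelium lay between 4.77 and 5.41 on all arrays, and its part in the Psmb11 signal was not tested. Psma8, an alpha subunit of male germ cells, was detected on 7 arrays, with a median of 4.20 in young cells, 4.24 with competition and 4.22 without. Its highest values, 5.89 and 5.55, were both in old cells without competition. Psmc3ip, the gene that fits the naming rule without being a subunit, did not pass the test in old cells with (-0.18 ± 0.15) or without competition (0.15 ± 0.14).

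No subunit passed the test between TN3 and TN2 cells. Limma called 0 of 34, where 1.17% of all genes were called in either direction. Its unadjusted p was below 0.05 for 2 of 34 subunits, against 10.9% of all genes. The median change was 0.08 for the core and -0.13 for the cap, with a median standard error of 0.26, so that with 2 arrays a group only large changes could be seen. The cap scaffold subunit Psmd2, which binds ubiquitin-like domains, was 4.98 and 6.85 in TN2 and 6.75 and 7.07 in TN3 (change of 0.99, limma adjusted p = 0.393). Psmd3, a lid subunit, was 5.18 and 6.55 in TN2 and 6.39 and 7.11 in TN3 (0.89, limma adjusted p = 0.410). Both differences rest on TN2 replicate 1 and were 0.05 and 0.20 without it, and a second Psmd3 probe changed by -1.85 (limma over single probes, adjusted p = 0.287).

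The cap genes of the controls were set against the other groups in contrasts with TN3 that were added after the levels had been seen. Young cells had 1 subunit called higher than TN3, where 2.49% of all genes were, and the median change was 0.30 for the cap and 0.04 for the core. Old cells with competition had 5 called higher, where 2.3% of all genes were, and old cells without competition had 0, where 1.11% were. Without array 6 the counts were 5, 10 and 6 subunits, against 3.91%, 4.79% and 2.76% of all genes, and Psmd8 was called lower in old cells without competition. Scaled to a common median, the young group had 22 subunits called and the old group with competition 23. That scaling also raised the number of all genes called by the F test. The share of all genes called in these contrasts under it is not given, so the counts are not read as a result about the subunits. Among those called in all 3 groups without array 6 was Psmd1, a cap scaffold subunit, which exceeded TN3 by 0.97 in young cells, 1.32 with competition and 1.09 without (limma adjusted p = 0.00724, 0.000755 and 0.00346). With all arrays this probe did not pass, nor did its other 2 probes, which changed by 0.61, 0.71 and 0.59 and by -0.17, 0.39 and 0.45 in the same order. Some dimmer probes were called where the brightest was not. In the same order, a Psmd6 probe changed by 0.68, 0.76 and 0.87 (limma over single probes, adjusted p = 0.0393, 0.0216 and 0.00977). A Psmb2 probe changed by 1.80, 1.78 and 1.03 (adjusted p = 0.00539, 0.00629 and 0.120). The brightest probes changed by -0.08, 0.22 and 0.15 and by 0.07, -0.06 and 0.10. The counts thus rest on the probe used. Of 20 subunits with several kept probes, the signs differed in 10 between young cells and TN3, in 7 with competition and in 4 without. On the probes used, all 4 TN2 and TN3 arrays lay below all young arrays for Psma5, Psmc4, Psmd7, Psmd11 and Psmd14, and above them for 0 subunits. Each of these subunits had another kept probe on which the control and young arrays overlapped. The share of all genes that separate in this way is not given, so these numbers are not read as a result about the subunits. TN3 cells shared no chip with young cells or old cells with competition and shared chip 5 with old cells without competition, so the chip and the group cannot be told apart for the first 2. The share of probes detected was also lower in TN2 (43.9% to 44.6%) and TN3 (43.1% to 44.2%) than in young cells (46.7% to 50.1%) and with competition (46.8% to 49.4%), and was 41.1% to 45.7% without. The mean of the dividing-cell markers was 7.05 and 7.08 in TN3, 7.31 and 7.40 in TN2 and 7.35 to 7.66 in young cells, and the part of either measure was not tested. The 3 comparisons share the TN3 arrays.

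Psmd14, the lid enzyme that cuts ubiquitin off substrates, was the subunit called in young cells. Its log2 signal was 8.69 and 8.80 in TN2, 8.55 and 8.57 in TN3, and 8.85, 9.08 and 9.38 as lowest, median and highest in young cells. In old cells it was 8.69, 9.22 and 9.29 with competition, with array 6 at the lowest value, and 8.80, 8.98 and 9.15 without. Young cells exceeded TN3 by 0.52 (limma adjusted p = 0.0407), a call that ended when any of 6 single arrays was left out, and old cells with competition by 0.57 (limma adjusted p = 0.024), or 0.66 without array 6 (limma adjusted p = 0.00157). A second Psmd14 probe, detected on all 25 arrays, did not pass in either (-0.05 and 0.12, limma over single probes, adjusted p = 0.955 and 0.853). On it TN2 (8.28 and 8.12) and TN3 (8.04 and 8.48) overlapped with young cells (8.04 to 8.52).

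Psma6, an alpha ring subunit, was 6.46 and 5.73 in TN2, 6.35 and 5.79 in TN3 and 6.41, 6.72 and 6.92 as lowest, median and highest in young cells. It was 6.59, 6.96 and 7.06 in old cells with competition, which exceeded TN3 by 0.81 (limma adjusted p = 0.0235), and 6.37, 6.69 and 7.03 without. For this gene the TN2 and TN3 arrays of chip 3 were lower than those of chip 5. Psmd11 was 5.23 and 4.69 in TN2, 5.10 and 4.86 in TN3, 5.44, 5.62 and 6.15 in young cells, 5.19, 6.20 and 6.80 with competition and 5.27, 5.82 and 6.07 without. All 4 control arrays lay below all young arrays on this probe. On another kept probe the control arrays (4.923 to 5.335) overlapped with young cells (5.047 to 5.854). Old cells with competition exceeded TN3 by 1.16 on the probe used (2.24-fold, limma adjusted p = 0.0291). Psmc6, an ATPase subunit, and Psmd8 were the other 2 subunits called there (1.09 and 0.63, limma adjusted p = 0.0296 and 0.033). Without array 6 the changes of Psma6, Psmd11, Psmc6 and Psmd8 were 0.86, 1.35, 1.26 and 0.61 (limma adjusted p = 0.0091, 0.00162, 0.00189 and 0.030). Of the 8 arrays compared, leaving out either TN3 array ended the calls of Psmd14, Psmd11, Psmc6 and Psmd8, and leaving out the TN3 array of chip 3 ended that of Psma6. Leaving out old-cell replicate 1 also ended those of Psmd11, Psmc6 and Psmd8, replicate 4 those of Psmd11 and Psmc6, replicate 5 those of Psmc6 and Psmd8 and replicate 2 that of Psmd8.

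**Figure D5:**
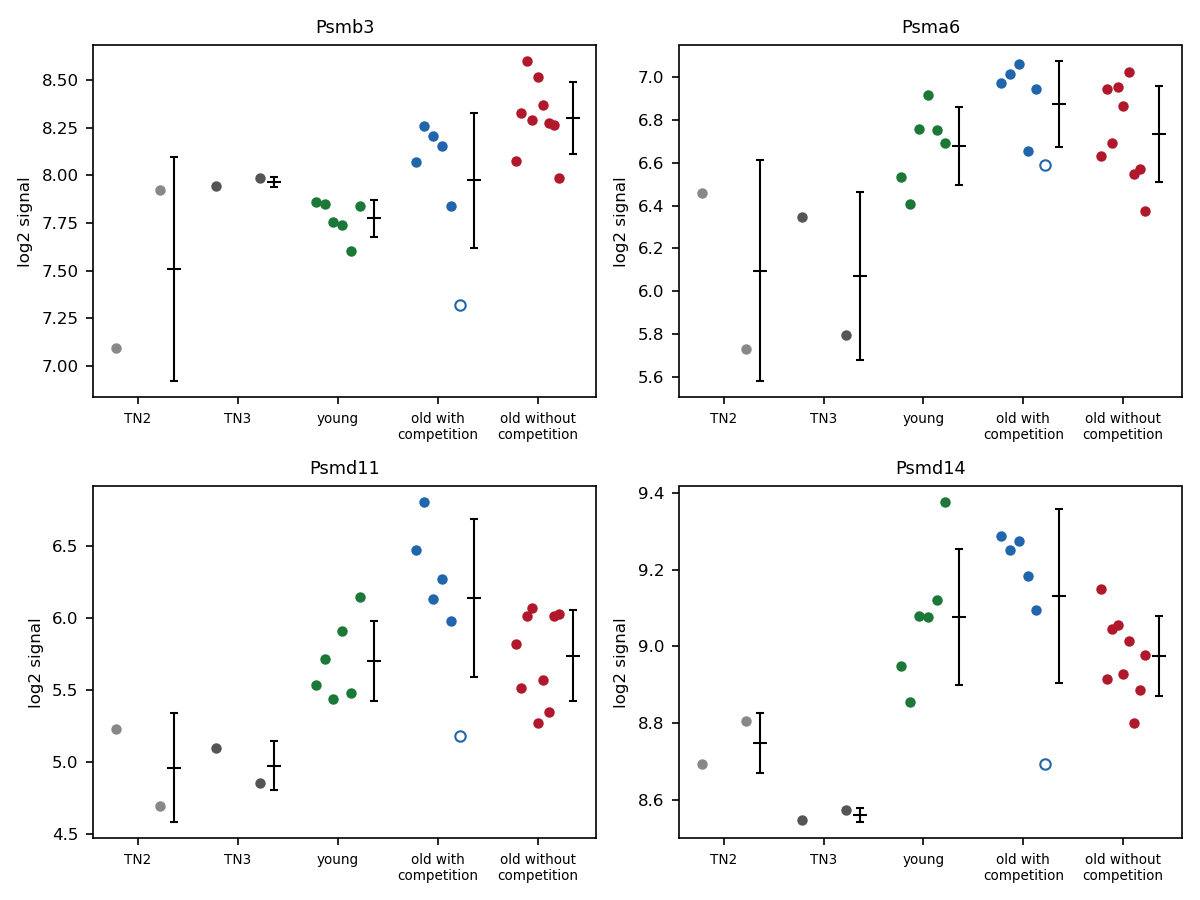
Log2 signal of Psmb3, Psma6, Psmd11 and Psmd14, the subunits other than Psmd8 that differed across the 5 groups by limma's F test, on each array with the group mean ± SD; the open circle is array 6. All 4 TN2 and TN3 arrays lie below the young arrays for Psmd11 and Psmd14 on the probes used, and old cells without competition lie above the young arrays for Psmb3.

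The 7 lists of genes that act with the proteasome were read in the same fit, beside medians over all genes of 0.00 in old cells with competition and 0.02 in old cells without. Against young cells, 3.17% of all genes were called higher and 5.76% lower in old cells without competition, and 21.4% had an unadjusted p below 0.05. In old cells with competition, only Psmb9 of the immunoproteasome list passed among the 7 lists with all arrays. Without array 6, where 2.68% of all genes were called lower, Stat3 (-0.57 ± 0.13, limma adjusted p = 0.0138) and the proteasome-bound ubiquitin ligase Ube3c (-0.69 ± 0.20, limma adjusted p = 0.0484), named after its values were seen, were also called lower. The median of the COP9 list was then 0.33, with 9 of 9 changes positive, against 51.1% of all genes. Among 5 activators and inhibitors, Psme1, an interferon-induced cap that opens the core, fell by 0.37 ± 0.09 in old cells without competition (limma adjusted p = 0.00814), and the other 4 did not pass (list median 0.17). Of 9 regulators of proteasome gene transcription, Stat3 fell by 0.55 ± 0.13 (limma adjusted p = 0.0109, list median -0.06). Nfe2l1 and Nfe2l2, which encode factors that raise proteasome genes, did not pass (-0.17 ± 0.14 and 0.36 ± 0.16).

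Of 11 deubiquitinases, receptors and shuttles, Ubqln2, a shuttle that carries ubiquitinated proteins to the cap, fell by 0.50 ± 0.14 (limma adjusted p = 0.0222, list median -0.04). Of 5 ubiquitin, E1 and Vcp genes, Nploc4, a cofactor of the Vcp segregase, rose by 0.79 ± 0.21 (limma adjusted p = 0.0185, list median 0.12). Of 9 measured genes of the COP9 signalosome, a relative of the lid, Cops5, its catalytic subunit, rose by 0.50 ± 0.14 (limma adjusted p = 0.0247). In this list 8 changes were positive, against 54.8% of all genes, and the median was 0.42. Of 5 assembly chaperones, 0 passed (median 0.13), and 2 had an unadjusted p below 0.05, against 21.4% of all genes.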

How the data were processed

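Total RNA of sorted thymocytes was copied into biotin-labelled cRNA and hybridised to 25 Illumina bead arrays on 5 chips, per the labels' protocols. The deposited table holds bead intensity on a linear scale for 46237 probes, with no background subtracted and no scaling as the values show, and a deposited detection p-value beside each intensity, whose test the sources do not name. The authors also deposited a log2 table with equal quartiles on every array, used as an alternative; each column correlated with the log2 intensity of its sample by at least 0.995, and its medians were 6.51. The labels and file headers used here name neither scanner nor genome build.

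The neqc function of limma 3.58.1 (R 4.3.3, offset 16) corrected the background and quantile normalized the arrays, which draws dim probes toward a floor. Probes with a detection p-value below 0.05 on at least 3 arrays were kept (30174). The platform annotation, updated through RefSeq, named 35784 probes by 1 gene and 10453 by none. The brightest kept probe stood for each of 15533 genes. Of 65 probes that fit the symbol rule, 62 were kept.

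A single limma model of all arrays estimated group means, the chip entering as a random effect (statmod 1.5.0, correlation 0.00457). Tests were two-sided, adjusted by Benjamini and Hochberg over all genes, with calls below 0.05. TN3 against TN2 alone could not estimate the block and was fitted without it as an alternative. The model without the chip effect was run on simulated data with independent normal noise, for the comparisons of old with young cells. The chip effect was not part of that test. Members and lists were chosen with earlier results of these data known. Named genes were the members called in the comparisons, up to 4 per class, the proteolytic and tissue-restricted subunits, and up to 3 called genes per list. Alternatives covered background, scaling, probe filter and choice, array weights, chip block, single chips and each array left out. For arrays, their number limits the precision.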

Additional observations from a re-analysis of the deposited data

Results flagged for a closer look

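Array 6 of the old cells with competition was far below the other 5 arrays of its group in 10 of the measures examined. Its core mean was 7.48 and its cap mean 7.50 on the log2 scale. It was also the lowest array for Psmb5 (4.83), Psmb6 (6.77), Psmb7 (9.32), Psmd14 (8.69), Psmc6 (6.07), Psmd7 (6.77), Psmd1 (6.45) and Cops5 (6.94). Young replicate 3 was far above its group in the core mean (8.14) and in Psma8 (4.64). In old cells without competition, replicate 1 was far below its group in Psmb8 (7.99), Psmb9 (8.83) and the core mean minus the cap mean (-0.069), and replicate 6 was far above it in Stat3 (9.37). In all, 16 of 81 groups of values held such a sample. Chance flags about 1 in 20 groups, and the measures share arrays. Some of the genes examined were named after their values had been seen, so the count cannot be set against that rate.

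The change from young cells differed between the old groups in 4 results. By limma, old cells without competition lay below old cells with competition in Psmd8 on its brighter probe (-1.20, adjusted p = 2.45e-07), Psmb9 (-0.40, adjusted p = 0.0118) and the shuttle gene Ubqln2 (-0.56, adjusted p = 0.0406). The 2 Psmd8 probes had opposite signs in this comparison. By the exact permutation test, old cells without competition were lower in Psmb9 minus Psmb6 (-0.62, exact adjusted p = 0.0018).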

How the results depend on the processing

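No paired analysis was possible because the labels give no replicate numbers shared between groups. Scaled to a common median, the F test called 4964 genes and 24 members. Old without against old with competition had 3425 genes and 13 members called (cap median -0.52, core -0.34). Old without competition against young had 3950 genes and 8 members (cap -0.43, core -0.37, Psmb3 -0.025, Psmb8 minus Psmb5 -0.11). TN3 against TN2 had 84 genes (cap -0.30, core -0.11). Against TN3, 23 members were called in old cells with competition and 22 in young cells. For these counts the share of all genes is not given. Without background correction and in the deposited log2 table, Psmb9 minus Psmb6 moved by -0.48 in old cells with competition and passed, Psmb8 minus Psmb5 moved by -0.078 and -0.079 in old cells without competition, and 2 members were called in young cells against TN3. With probes detected on all 25 arrays, the F test called 1114 genes, and 237, 890, 102 and 31 genes were called in old with competition against young, old without against young, old without against old with, and TN3 against TN2, with 0 members in young against TN3. With array weights the genes called in that order were 1077, 2167, 577 and 82, and members 3, 4, 3 and 0 in the first 3 comparisons and young against TN3, with 13 by the F test. With the mean of all kept probes, 2 members were called in old with competition against TN3, 0 in young against TN3 and 1 in old without against young, where the cap median was 0.11 and Psmd8 did not pass (-0.25). With only the groups compared, 2142 genes and 4 members were called in old without against young, and 0 genes in TN3 against TN2. On chip 2 alone 43 genes and on chip 4 alone 235 were called in old with competition against young. Tested by single probes, 6 of 34 subunits had a called probe in old without against young, a count given without the share over all probes. The causes of these differences were not tested, except that fewer genes or arrays entered some fits.

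With each array left out in turn, the F test called 1607 to 2895 genes and 2 to 16 members. Members called ranged from 0 to 10 in old with competition, 0 to 1 in old without and 0 to 1 in young cells against TN3, 0 to 2 in old with competition against young, 1 to 3 between the old groups (108 to 337 genes) and 0 to 1 in TN3 against TN2 (core median 0.027 to 0.17). In old with competition against young, Psmb9 minus Psmb6 ranged from -0.67 to -0.43, Psmb10 minus Psmb7 from -0.36 to -0.22 and Psmb8 minus Psmb5 from -0.65 to -0.35. In old without against young, the latter 2 ranged from -0.46 to -0.33 and from -0.026 to 0.12, and between the old groups Psmb8 minus Psmb5 ranged from 0.39 to 0.68. Contrasts with TN3, the fits without array 6 read in the text and the tests of single probes were chosen after seeing the data.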
